A study of Rattus norvegicus with 6 samples.

Results

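Gdf15, Fgf21 and Adm2 encode secreted peptides that cells release under stress, and Klb encodes β-klotho, the co-receptor of FGF21. These 4 genes were taken by name from a table of 56748 genes, and 3 of the 4 passed the filter on low counts that 16993 genes passed; Klb did not. They were chosen by their difference between EVadMu and EVMu in these same counts, so their own values are given as a description, without a test. The measurement was poly(A)-selected RNA-seq of primary neurons of the dorsal root ganglion (DRG), the sensory ganglion beside the spinal cord, labelled Rattus norvegicus. In 3 libraries (EVMu) the neurons had received extracellular vesicles from innervated muscle, and in 3 (EVadMu) vesicles from acutely denervated muscle, so that all 6 libraries come from vesicle-treated cells. There is no group without vesicles, so a higher level in EVadMu cannot be told apart from a lower level in EVMu. Strain, age, sex, vesicle dose and time of exposure are not stated in the labels, nor is whether replicate libraries were made from different cultures or animals. The p-values below reflect library-to-library spread alone, possibly technical, and a difference in culture or library batch cannot be told apart from the kind of vesicle.

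GDF15 is a distant member of the TGF-β superfamily that signals through GFRAL and the receptor kinase RET, mainly in the hindbrain, where it lowers food intake. FGF21 is an endocrine fibroblast growth factor, best known from liver and also made by stressed muscle, that signals through FGF receptors, chiefly FGFR1, bound to β-klotho. ADM2, also called intermedin, is a calcitonin-family peptide that acts on vessels and neurons through the receptor CALCRL paired with a RAMP protein. Genes of all these hormones are known targets of ATF4, the transcription factor of the integrated stress response, in which phosphorylation of eIF2α slows general translation while ATF4 is made. ATF4 and its partners bind the C/EBP-ATF response element.

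The promoter sequences of the hormone genes are shown because the results below describe ATF4 and its other targets beside them. They are the 250 bases before an annotated transcription start in the rat genome build GRCr8, from RefSeq, written 5′ to 3′ on the strand of the gene, and all 4 genes had an entry. Fgf21 lies at chr1:105221377-105221626 (minus strand), Gdf15 at chr16:18839015-18839264 (plus strand, the downstream of 2 annotated starts) and Adm2 at chr7:122272558-122272807 (plus strand). Capitals mark a match to any of 6 motifs searched on both strands.
Fgf21: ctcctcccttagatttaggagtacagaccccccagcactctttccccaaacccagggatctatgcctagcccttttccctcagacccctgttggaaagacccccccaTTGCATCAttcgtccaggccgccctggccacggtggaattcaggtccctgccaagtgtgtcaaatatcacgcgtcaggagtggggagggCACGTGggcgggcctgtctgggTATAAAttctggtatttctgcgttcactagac
Gdf15: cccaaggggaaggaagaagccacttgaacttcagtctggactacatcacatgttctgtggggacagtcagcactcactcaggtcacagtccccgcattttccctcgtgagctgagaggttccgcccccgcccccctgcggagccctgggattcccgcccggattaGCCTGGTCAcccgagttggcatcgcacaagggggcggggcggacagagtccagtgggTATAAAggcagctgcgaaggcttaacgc
Adm2: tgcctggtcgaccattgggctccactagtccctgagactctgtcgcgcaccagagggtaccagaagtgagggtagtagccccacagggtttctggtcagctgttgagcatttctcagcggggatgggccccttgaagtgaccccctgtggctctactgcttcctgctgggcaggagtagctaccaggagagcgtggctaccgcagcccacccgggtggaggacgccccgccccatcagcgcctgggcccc

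The motifs were the C/EBP-ATF response element (TGATGNAA), the cyclic AMP response element (TGACGTCA), a hypoxia response core (ACGTG), the endoplasmic reticulum stress element (CCAAT and, after 9 further bases, CCACG), the antioxidant response element (TGACNNNGC) and the TATA box (TATAAA). Counting bases back from the start, Fgf21 held the C/EBP-ATF element as TTGCATCA at -143 to -136, which is the motif read on the other strand. The same element was found in 3.4% of 33469 rat promoter windows of this length. Fgf21 also held the hypoxia core on both strands, overlapping each other at -54 to -49 (16.6% of windows), and a TATA box at -32 to -27 (12.9% of windows). In Gdf15 the antioxidant element stood at -85 to -77 as GCCTGGTCA (10.1% of windows) and a TATA box at -28 to -23. Neither the other Gdf15 window nor the windows of Adm2 and Klb held any of the 6 motifs. Among the 20 other ATF4 target genes listed below, 19 had a window and 5 of these, Chac1, Nupr1, Pck2, Pycr1 and Trib3, held the C/EBP-ATF element (26.3%, where a gene with several windows counts if any window holds it). The hypoxia core stood in 7 of the 19 (36.8%), the antioxidant element and the TATA box in 3 each (15.8%), and the other motifs in 0. A match is a string of letters and does not show binding, and sites farther from the start or inside the gene were not searched.

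Gdf15 (ENSMUSG00000038508 in the table, a mouse identifier like all others there) had 85, 52 and 56 counts in EVMu replicates 1 to 3 and 7302, 6845 and 6792 in EVadMu replicates 1 to 3. In TMM-normalised CPM (counts relative to the scaled library size), these are levels of 5.48, 3.37 and 3.17 against 452.8, 430.5 and 429.5. All EVadMu libraries were thus far above all EVMu libraries, and the lowest EVadMu level was 78.4 times the highest EVMu level. The mean level was 4.01 ± 1.28 CPM in EVMu and 437.6 ± 13.2 CPM in EVadMu (SD, n = 3 each), a ratio of 109 and a fitted log2 fold change of 6.78 ± 0.073 (SE). EVMu replicate 1 stood apart from the other EVMu libraries, and leaving it out gave a log2 fold change of 7.05. That shift is larger than the SE, which is derived from the F statistic and understates the uncertainty here.

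Fgf21 (ENSMUSG00000030827), the hormone that needs β-klotho, was nearly silent in EVMu, with 5, 3 and 3 counts, and had 436, 397 and 345 counts in EVadMu. Its levels were 0.322, 0.194 and 0.170 CPM against 27.0, 24.97 and 21.8 CPM. The groups did not overlap, and the spread in EVadMu was wider for Fgf21 than for Gdf15, with a coefficient of variation of 10.7% against 3.01%. The ratio of summed counts was 109 with a 95% counting interval of 60.6 to 219, wide because EVMu held 11 counts in all. The fitted log2 fold change was 6.72 ± 0.22 (SE). This SE is derived from the F statistic and is narrower than the counting interval, so it understates the uncertainty. Fgf21 passed the count filter through EVadMu alone, so it could enter the comparison only by being high there.

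Adm2 (ENSMUSG00000054136) was present at a low level in EVMu and had a smaller difference. Its counts were 23, 29 and 42 in EVMu and 229, 193 and 206 in EVadMu, or 1.48, 1.88 and 2.38 against 14.2, 12.1 and 13.0 CPM. The groups did not overlap, with the lowest EVadMu level at 5.10 times the highest EVMu level. The means were 1.91 ± 0.45 and 13.1 ± 1.03 CPM (SD, n = 3 each), a ratio of 6.86 and a fitted log2 fold change of 2.76 ± 0.18 (SE). Among all 16993 tested genes ordered by log2 fold change, Gdf15 was number 8, Fgf21 number 9 and Adm2 number 314 from the top. These genes were picked for this difference, so their high ranks follow in part from the choice.

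Klb (ENSMUSG00000029195), the co-receptor gene, stood near the limit of detection in all libraries. It had 4, 8 and 3 counts in EVMu and 10, 16 and 10 in EVadMu, or 0.258, 0.519 and 0.170 against 0.620, 1.01 and 0.632 CPM. The highest EVMu and the lowest EVadMu library differed by 8 against 10 counts, so the groups were separate by a margin within counting noise. The ratio of summed counts was 2.44 with a 95% counting interval of 1.30 to 4.79, and the log2 ratio of the mean levels, 1.26, became 1.81 when EVMu replicate 2 was left out. Intervals here and below cover counting error only. None of the 4 genes had overlapping groups, and 80.7% of all tested genes had none either. Within the same fit, 80.0% of the tested genes had an edgeR adjusted p under 0.05, so a difference in itself did not set a gene apart in this comparison.

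**Figure D1:**
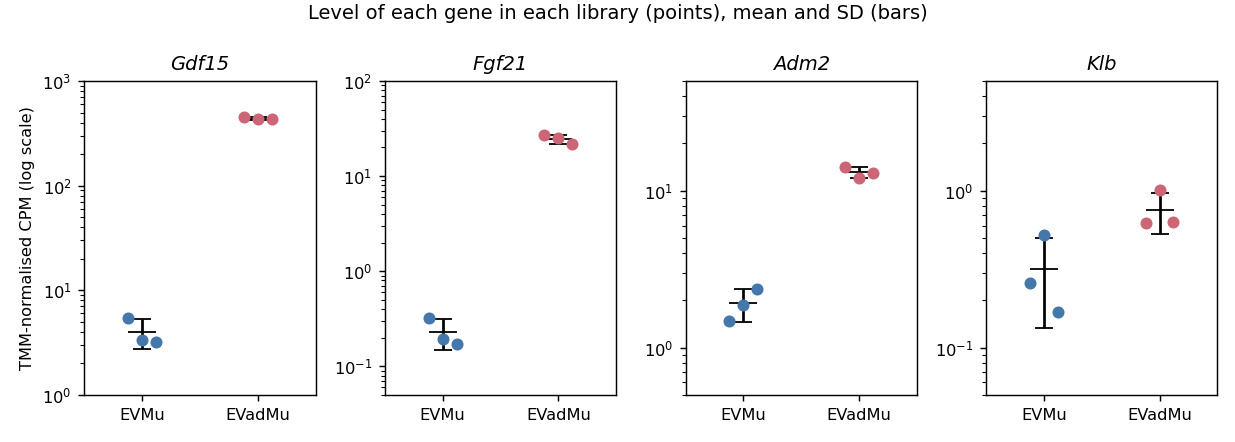
TMM-normalised CPM on log axes (a separate range for each gene) for Gdf15, Fgf21, Adm2 and Klb in the 3 EVMu and the 3 EVadMu libraries, with points for libraries and bars for the mean and SD. The Gdf15 groups stand at 4.01 and 437.6 CPM on average, and the Klb groups at 0.315 and 0.753 CPM, with 8 against 10 counts in the libraries nearest each other.

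Ratios between the hormone genes within a library do not depend on how libraries are scaled. Gdf15 had 17, 17.3 and 18.7 counts for each Fgf21 count in EVMu and 16.7, 17.2 and 19.7 in EVadMu. Summed over a group this was 17.5 (95% counting interval 9.59 to 35.7) in EVMu and 17.8 (16.8 to 18.9) in EVadMu, so the proportion was nearly the same in both groups. The EVMu interval is too wide to exclude a moderate shift. Against Adm2 the proportion differed between groups, with 3.70, 1.79 and 1.33 Gdf15 counts for each Adm2 count in EVMu and 31.9, 35.5 and 33.0 in EVadMu. The summed ratios were 2.05 (1.60 to 2.66) and 33.3 (30.8 to 36.2). The EVMu interval leaves out the values of replicates 1 and 3, so it understates the spread between libraries. All 3 genes were picked on this contrast, so these proportions restate their fold changes and are no test. EVMu replicate 1 had the most Gdf15 and Fgf21 counts of its group and the fewest Adm2 counts. In EVadMu, replicate 1 was the highest for all 3 hormone genes. These are proportions of reads, which also depend on transcript length, and not of molecules.

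Across all genes, the quasi-likelihood test of edgeR (Benjamini-Hochberg adjusted p under 0.05) called 6658 of 16993 genes higher in EVadMu (39.2%) and 6939 lower (40.8%), with a median log2 fold change of -0.02. The lists below are read against those shares. Libraries held 14853115 to 17019877 counts. All 12 pan-neuronal and all 10 sensory neuron markers were detected, with summed levels of 5496 to 5722 and 2578 to 2598 CPM in EVMu and 3408 to 3519 and 1456 to 1506 CPM in EVadMu. Of the 12 pan-neuronal markers 9 were lower and 1 higher, and of the 10 sensory markers 9 were lower and 0 higher. Markers of other cells were present too, and these also differed between the groups. Fibroblast markers (10 of 10 lower, 3 passing the filter through EVMu alone) summed to 5797 to 5863 CPM in EVMu and 239.7 to 256.1 in EVadMu, and Schwann and satellite glia markers (9 of 10 lower, 1 passing through EVMu alone) to 3955 to 4000 and 1085 to 1107. Macrophages can make GDF15, and 7 of 8 tested macrophage markers were lower, 6 of the 8 passing the filter through EVMu alone, while the sum over all 10 went from 35.8 to 41.6 CPM up to 133 to 138.6 through Cd68, a lysosomal protein gene that other cells express as well (12.9 ± 1.9 to 131 ± 3.2 CPM). Skeletal muscle, the tissue the vesicles came from, also makes FGF21 and GDF15 under stress. Of its 12 markers 7 were tested and all 7 were higher, 4 of them passing the filter through EVadMu alone, and their sum went from 7.73 to 8.67 CPM up to 31.1 to 36.1, with the muscle actin gene Acta1 at 14.3 ± 1.3 CPM. For liver, Apoc3, Serpina1a and Ambp had no counts, and the 9 markers with a row summed to at most 0.519 CPM in EVMu and 1.76 CPM in EVadMu. Only 1 liver marker, Alb, was tested, and it was called higher, passing the filter through EVadMu alone. It had 5, 1 and 0 counts in EVMu and 20, 21 and 19 in EVadMu. In bulk RNA, fewer cells of a type cannot be told apart from less RNA per cell, and the part of these shifts in the hormone levels was not tested.

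**Figure D2:**
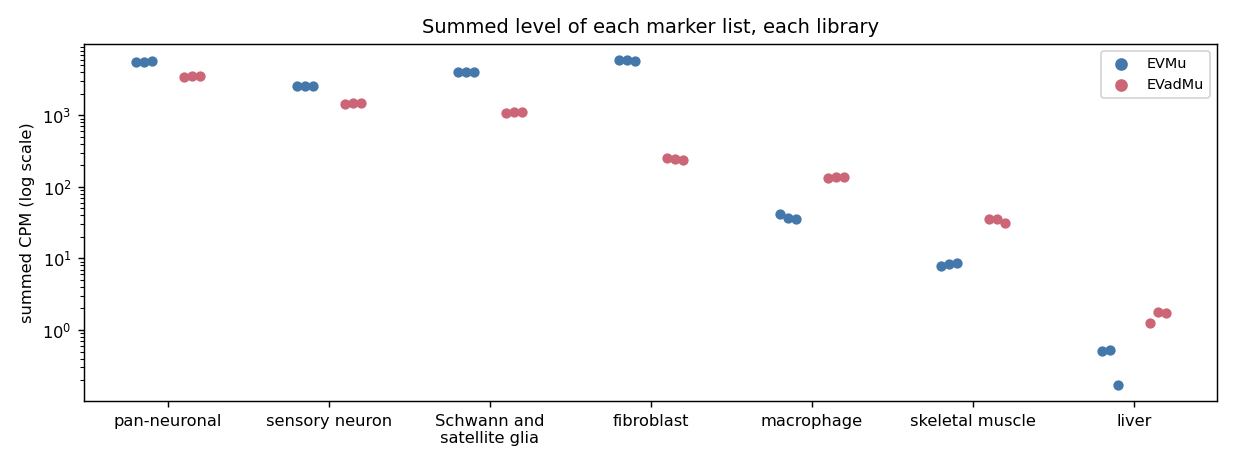
Summed CPM (log axis) of each cell type marker list in each of the 6 libraries. Fibroblast markers fall from at least 5797 CPM in EVMu to at most 256.1 CPM in EVadMu, while skeletal muscle markers stay at or below 36.1 CPM in every library.

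The receptor side of GDF15 was lower in EVadMu or hardly detected. Gfral, the GDF15 receptor gene, had 0, 0 and 2 counts in EVMu and 1, 2 and 0 in EVadMu, too few for a comparison. Ret, the kinase that GFRAL and the GDNF family receptors share, stood at 563.9, 582.9 and 587 CPM in EVMu and at 119.1, 107.3 and 108.8 in EVadMu. The groups did not overlap, and Ret fell by 2.37 ± 0.037 on the log2 scale (edgeR adjusted p = 4.47e-34). Its GDNF-type co-receptor genes went the same way, with a median of -2.64. Of these, 3 of 4 were lower, against 40.8% of all tested genes. Gfra3, the artemin receptor, had a log2 fold change of -3.90 ± 0.090, Gfra2 of -3.14 ± 0.060 and Gfra1 of -2.14 ± 0.044, and Gfra4 was at -0.30 and did not pass. The sensory neuron and glia markers were mostly lower too, with medians of -1.16 and -2.44. The part of those shifts in Ret and the Gfra genes was not tested.

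GDF15 is released from its precursor by furin-type proprotein convertases, and the membrane protease MMP14 can cut GFRAL from the cell surface. With Ret, 5 of 6 tested genes of this list were lower and 0 higher, with a median of -1.002. Over all tested genes, 40.8% were lower and 39.2% higher. Mmp14 fell from 267 ± 4.89 to 94.98 ± 3.82 CPM and the convertase gene Pcsk6 from 8.08 ± 0.87 to 2.05 ± 0.64 CPM. Furin and Pcsk7 had log2 fold changes of -0.33 ± 0.049 and -0.51 ± 0.077, while Pcsk5 was at -0.04 and did not pass. Mmp14 is strongly expressed by fibroblasts, whose markers were lower in the same libraries.

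Among the receptors of FGF21, Fgfr1 was the gene with by far the most counts, and it was higher in EVadMu. Its levels were 348.6, 347.3 and 369.3 CPM in EVMu and 579.5, 579.9 and 546.5 in EVadMu, without overlap, and it rose by 0.68 ± 0.033 on the log2 scale (edgeR adjusted p = 9.02e-20). Fgfr2 and Fgfr3 were lower, from 5.45 ± 0.88 to 1.95 ± 0.55 CPM and from 2.25 ± 0.28 to 0.230 ± 0.035 CPM. Fgfr4, a receptor best known from liver, had 2, 4 and 4 counts in EVMu and 16, 14 and 14 in EVadMu (log2 fold change 2.12 ± 0.53), passing the filter through EVadMu alone. Kl, which encodes α-klotho, the co-receptor of FGF23, had 0, 5 and 5 counts in EVMu and 2, 0 and 2 in EVadMu and was not tested. Hence Fgfr1 was measured at 347.3 CPM or more in every library, while both klotho genes had at most 16 counts in any.

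Downstream of these receptors the adaptor genes were split. The docking protein gene Frs2, which links FGF receptors to the MAP kinase pathway, rose from 62.8 ± 3.0 to 89.0 ± 1.4 CPM and its partner Grb2 from 126 ± 0.51 to 165.5 ± 1.2 CPM. Gab1, another docking protein gene, fell from 133 ± 2.2 to 40.4 ± 2.2 CPM. Fap, a protease of activated fibroblasts that cuts and inactivates human FGF21, had 121, 134 and 138 counts in EVMu and 7, 10 and 3 in EVadMu, a log2 fold change of -4.25 ± 0.28. In all, 4 of 11 tested genes of the FGF21 list were higher and 7 lower, with a median of -0.47. The shares over all tested genes were 39.2% and 40.8%. Fap and Fgfr3 passed the filter through EVMu alone, as Fgfr4 did through EVadMu. Fap is a fibroblast gene and went with the fibroblast markers.

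For ADM2 the receptor gene was higher and its RAMP partners differed in direction. Calcrl stood at 14.0, 13.9 and 15.6 CPM in EVMu and 22.7, 21.3 and 21.6 in EVadMu, without overlap, a rise of 0.59 ± 0.096 on the log2 scale (edgeR adjusted p = 1.16e-06). Ramp2, which turns CALCRL into an adrenomedullin receptor, fell from 15.2 ± 0.69 to 3.36 ± 0.28 CPM. Ramp3, which forms another adrenomedullin receptor that also answers ADM2, rose from 2.72 ± 0.62 to 8.94 ± 1.2 CPM. Ramp1, which makes the receptor of CGRP, had 3 to 5 counts per EVMu library and 3 to 9 per EVadMu library, and the calcitonin receptor gene Calcr 1 to 2 and 3 to 6, so neither was tested. Calcrl and Ramp2 are abundant in endothelial cells, and endothelial levels were not measured separately.

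**Figure D3:**
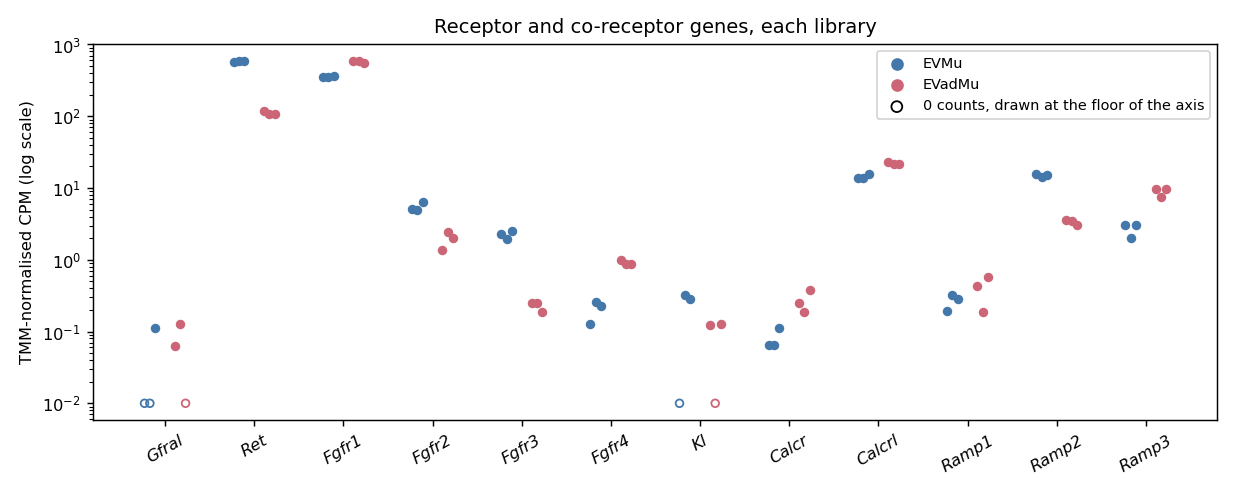
TMM-normalised CPM (log axis) of the receptor and co-receptor genes in each library, with open circles for libraries without counts. Ret drops from above 560 to below 120 CPM, Fgfr1 is higher in EVadMu at 546.5 to 579.9 CPM, Ramp2 and Ramp3 move in opposite directions, and Gfral and Kl stay at the bottom of the axis.

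The peptide relatives of Adm2 did not move as a family. Adm, the adrenomedullin gene, rose from 4.90, 5.32 and 6.35 CPM in EVMu to 57.7, 57.6 and 61.2 in EVadMu, a log2 fold change of 3.405 ± 0.092 (edgeR adjusted p = 3.04e-27), beside 2.76 for Adm2. The CGRP genes of sensory neurons fell, Calca from 437 ± 0.66 to 222 ± 6.8 CPM and Calcb from 73.9 ± 2.7 to 7.43 ± 1.9 CPM. Calca is itself one of the sensory neuron markers, most of which were lower. Pam, the enzyme that amidates these peptides, fell by 0.86 on the log2 scale, and Ackr3, a scavenger receptor that takes up adrenomedullin, went from 16.05 ± 3.1 to 2.03 ± 0.45 CPM. Crcp, whose product helps CALCRL signal, rose by 0.67. The scavenger receptor gene Gpr182 was at 0.18 and did not pass, and Iapp had no counts. Over the whole list of receptor and peptide genes, 4 of 10 tested genes were higher and 5 lower, at a median of -0.34. Of all tested genes, 39.2% were higher and 40.8% lower.

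Close relatives of the other hormones gave no general rise either. Of 10 other GDF genes 3 were tested, where Gdf9, known from the oocyte, rose from 2.27 ± 0.16 to 5.62 ± 0.62 CPM and Gdf11 fell from 30.4 ± 1.2 to 4.31 ± 0.45 CPM. Gdf10 had 157 counts over EVMu and 1 over EVadMu, a ratio of 155 (95% counting interval 27.3 to 6142). Of 21 other FGF genes 12 were tested, with 1 higher and 9 lower and a median of -1.28. All tested genes together had 39.2% higher and 40.8% lower. Fgf2, a mitogen of glia and fibroblasts, fell from 66.8 ± 2.8 to 6.27 ± 0.39 CPM and Fgf7, which fibroblasts make for epithelia, from 9.43 ± 0.27 to 1.65 ± 0.043 CPM. Fgf3 and Fgf5 had log2 fold changes of -3.42 ± 0.33 and -1.64 ± 0.22. Gdf10, Fgf3 and Fgf18 passed the filter through EVMu alone. Fgf9, which neurons express, was the gene that rose, from 2.23 ± 0.73 to 4.44 ± 0.63 CPM. The endocrine relatives Fgf15 and Fgf23 had at most 11 and 15 counts in any library and were not tested.

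Transcription factors that act on the hormone genes were mostly higher. Of 14 tested, 11 were higher and 0 lower, against 39.2% and 40.8% of all genes, with a median of 0.98. Pparg was among the 11 although its groups overlapped (edgeR adjusted p = 0.039). With upper-quartile factors, library size alone, no filter, DESeq2 or some libraries left out, 10 were called higher. Atf4 itself rose from 208 ± 1.0 to 1100 ± 32 CPM, or by 2.40 ± 0.031 on the log2 scale. Ddit3, which encodes CHOP, rose from 55.6 ± 4.5 to 649.5 ± 24 CPM and Cebpb, a dimer partner of ATF4, from 19.0 ± 3.0 to 156 ± 4.9 CPM. Nr1h4, the bile acid receptor FXR that drives the intestinal FGF of this family, rose from 1.22 ± 0.18 to 3.47 ± 0.56 CPM. The members that did not pass were Ppara, the fatty acid receptor that drives Fgf21 in fasting liver (-0.52), Hif1a (-0.05) and Creb1 (0.05). Hif1a was called lower with upper-quartile factors (-0.10) and with library size alone (-0.16).

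Of kinases and sensors upstream of ATF4 or of the parallel IRE1 and ATF6 branches of the unfolded protein response, 7 of 9 were higher. The other 2 were lower, and the median was 0.61. Of all tested genes, 39.2% were higher and 40.8% lower. Ern1, which encodes the unfolded protein sensor IRE1, rose from 37.5 ± 3.0 to 115.6 ± 1.5 CPM, Atf6 from 88.7 ± 1.7 to 217.5 ± 4.2 CPM and Eif2s1, the gene of eIF2α, from 72.5 ± 4.2 to 168 ± 9.7 CPM. The genes of the other eIF2 kinases, Eif2ak1 (HRI), Eif2ak3 (PERK) and Eif2ak4 (GCN2), rose by 0.61, 0.95 and 0.45 on the log2 scale. Eif2ak2, the RNA-activated and interferon-induced kinase PKR, fell from 50.3 ± 3.8 to 7.21 ± 0.60 CPM. The mitochondrial protease gene Oma1, which cuts DELE1 and so relays mitochondrial stress to HRI, fell by 0.82, whereas Dele1 rose by 0.41.

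All 20 tested ATF4 target genes were higher in EVadMu, against 39.2% of all tested genes. Their median log2 fold change was 1.62, with a range of 0.30 to 5.08. This list and the transcription factor list were chosen knowing that the stress response was higher in these libraries, so their direction is not independent evidence. Stc2, the secreted glycoprotein stanniocalcin 2, rose from 2.58, 1.88 and 2.15 CPM to 74.0, 76.9 and 73.2. Slc7a11, the cystine transporter, rose from 37.4 ± 1.3 to 534 ± 4.8 CPM, the mitochondrial folate enzyme gene Aldh1l2 from 26.1 ± 2.2 to 311 ± 22 CPM and the pseudokinase gene Trib3 from 17.8 ± 1.4 to 142.6 ± 2.7 CPM. Set beside them, the difference of Adm2 (2.76) lay inside the range of the list, and those of Gdf15 (6.78) and Fgf21 (6.72) above its highest member. All 3 values belong to genes picked for their difference and carry no test.

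**Figure D4:**
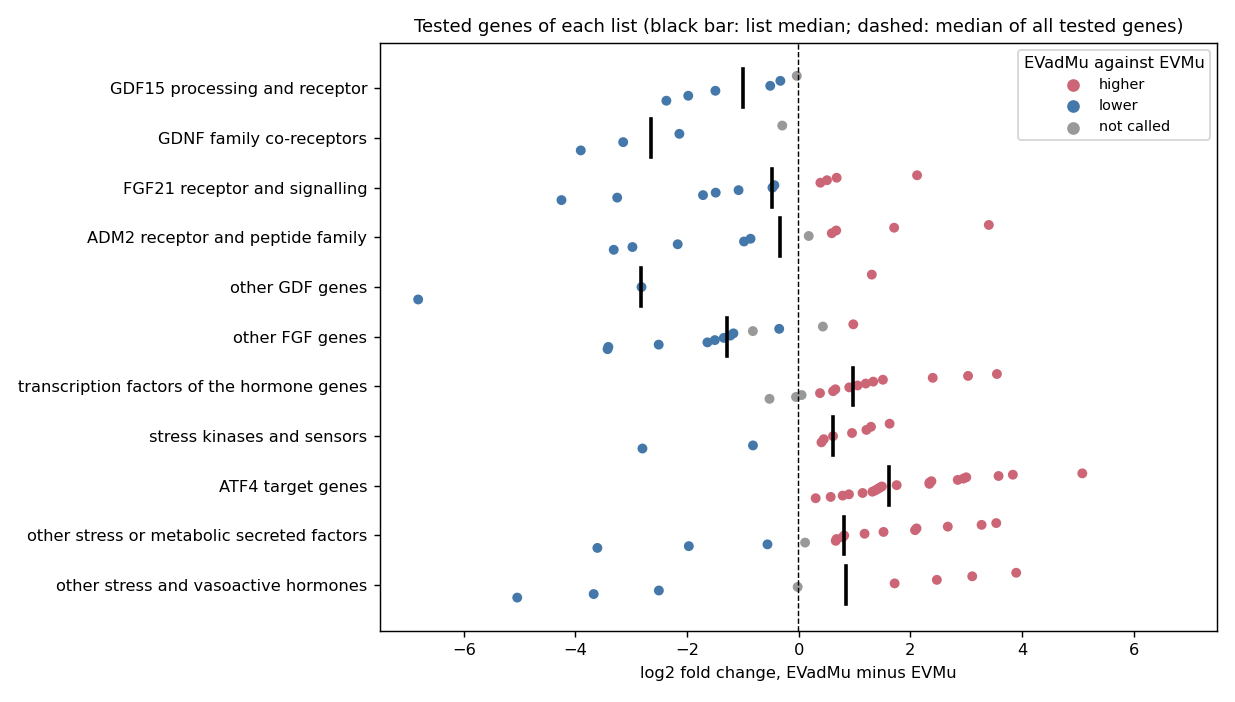
Fitted log2 fold changes (EVadMu minus EVMu) of the tested genes in each list, coloured by call, with a black bar at each list median and a dashed line at -0.02, the median of all tested genes. The 20 ATF4 targets lie between 0.30 and 5.08, while the receptor lists and the other GDF and FGF genes have medians below 0.

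Other secreted factors made under stress or by metabolic tissues were more often higher than lower. Of 15 tested, 11 were higher and 3 lower, against 39.2% and 40.8% of all tested genes, at a median of 0.81. Il6 passed the filter through EVadMu alone. Angptl6, a circulating factor linked to energy use, rose from 3.81 ± 0.54 to 44.3 ± 4.2 CPM, Vegfa from 54.9 ± 1.6 to 531 ± 13 CPM and Lcn2, an iron-carrier binding protein, from 5.46 ± 0.10 to 34.7 ± 2.0 CPM. Metrn, a neurotrophic factor of glia, fell from 270 ± 5.0 to 22.2 ± 3.0 CPM, its relative Metrnl by 0.56 on the log2 scale, and Angptl4, a fasting-induced lipase inhibitor, from 10.6 ± 0.55 to 2.698 ± 0.41 CPM. Among 8 tested peptide hormones of the stress axis and of vessel tone, 4 were higher and 3 lower. This split lies near that of all tested genes. The natriuretic peptide gene Nppb, an itch transmitter of sensory neurons, rose from 0.649 ± 0.28 to 9.89 ± 0.16 CPM, the opioid precursor gene Pomc from 1.14 ± 0.39 to 9.97 ± 0.47 CPM and endothelin 1, Edn1, from 2.01 ± 0.69 to 6.65 ± 1.0 CPM. The corticotropin-releasing family went the other way, where Crh had 79 counts over EVMu and 2 over EVadMu (ratio 38.9, 95% counting interval 10.4 to 327) and Ucn and Ucn2 had log2 fold changes of -3.67 ± 0.68 and -2.51 ± 0.58. Crh, Ucn and Ucn2 passed the filter through EVMu alone and lay at or below 1.804 CPM in every library, and of the 4 higher genes Nppb and Oxt passed through EVadMu alone.

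Genes next to each of the 4 genes in the rat gene order of RefSeq had fitted log2 fold changes between -0.64 and 3.57. Around Gdf15, Pgpep1 rose by 0.24 ± 0.072 on the log2 scale and Ssbp4 fell by 0.64 ± 0.078. Lrrc25, which overlaps Gdf15 in that annotation, had 12, 13 and 7 counts in EVMu and 0, 0 and 1 in EVadMu. Whether both genes also overlap in the mouse annotation used for counting was not tested. Beside Fgf21, Fut1 had 1 to 4 and 2 to 11 counts per library in EVMu and EVadMu and Izumo1 4 to 7 and 0 to 7, and both groups overlapped. Around Adm2, Sbf1 and Ppp6r2 had log2 fold changes of 0.15 ± 0.040 and -0.53 ± 0.057, while Miox, the kidney enzyme of inositol breakdown, had 3 counts over EVMu and 39 over EVadMu (ratio 13.2, 95% counting interval 4.20 to 66.8). Next to Klb, the ribosomal protein gene Rpl9 rose from 195 ± 9.9 to 549 ± 25 CPM and Lias, an enzyme of lipoic acid synthesis, by 0.69 ± 0.078. Of 16 neighbour positions, 3 held a gene below the filter and 6 a gene with no row of that name in the table. All tested neighbours were called, 5 higher and 2 lower, where 80.0% of all tested genes were called (39.2% higher and 40.8% lower). The calls of Pgpep1 and Sbf1 were lost with library size alone as the scaling, and Miox passed the filter through EVadMu alone.

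**Figure D5:**
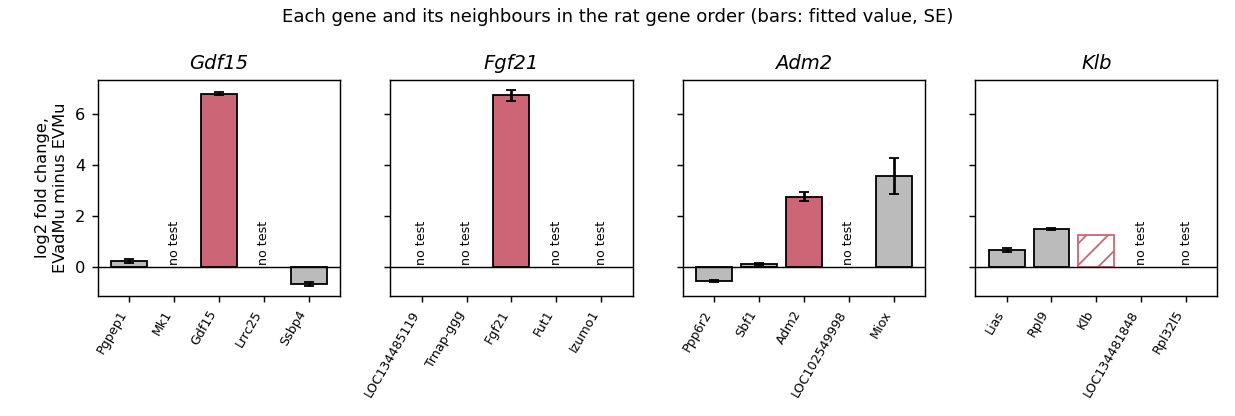
Log2 fold changes with SE of each gene (coloured) and of the 2 genes on either side in the rat gene order (grey), with "no test" where a gene has no row or was below the filter. The hatched Klb bar is the log2 ratio of mean CPM, 1.26, without a test, and the tested neighbours of Gdf15 stay between -0.64 and 0.24.

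The genes whose levels followed each hormone gene most closely over the 6 libraries were found by the root mean square distance between log2 CPM values centred on each gene's own mean. Gdf15 and Fgf21 lay at 0.324 from each other, closer than any gene outside the 4 that met the naming rule. Among those outside genes, Hmox1, the heme-degrading enzyme, was nearest to both Gdf15 (distance 0.666) and Fgf21 (0.371), with levels of 62.1 to 66.5 CPM in EVMu and 2918 to 3020 in EVadMu. Hspa1a, an inducible HSP70 gene with a near-identical copy that can share its reads, was among the nearest 3 of both (0.762 and 0.465). Sstr5, a somatostatin receptor gene, was also near Gdf15 (0.751), and the olfactory receptor gene Olfr1392 near Fgf21 (0.483). Sstr5 had 1, 0 and 3 counts in EVMu and Olfr1392 had 2 over that group, and both passed the filter through EVadMu alone. Adm2 had closer companions, namely the sterol esterifying enzyme gene Soat2 (0.113), Ppargc1a, the coactivator PGC-1α (0.116), and the RNA gene Snhg12 (0.127). Soat2 went from 3.38 ± 0.42 to 24.7 ± 1.9 CPM and Ppargc1a from 11.7 ± 1.7 to 77.6 ± 1.8 CPM. With 2 groups of 3 libraries, likeness of this kind is mostly a like difference between the groups. Gdf15 and Fgf21 were both picked for that difference, so their likeness is partly set by the choice. The prior count of 2 in these log2 values shrinks the difference of Fgf21, with its few EVMu counts, more than that of Gdf15 or Hmox1. Without that shrinkage the fitted log2 fold changes were 6.72 for Fgf21, 6.78 for Gdf15 and 5.52 for Hmox1.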

How the data were processed

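Poly(A)-selected RNA of 6 DRG neuron libraries was sequenced. The authors deposited whole-number read counts per gene, not normalised. Per the submitters' processing notes, CASAVA 1.8, HISAT2, SAMtools and featureCounts and the mouse build mm39 were used, with settings not given in the sources used here. All gene identifiers are mouse, the organism label is rat, and reads lost where the sequences differ could lower some genes more than others; this was not tested. Groups come from the sample titles.

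The members and lists were chosen with earlier results of these data known. Genes passing edgeR's filter (minimum count 10, minimum total 15; 16993 genes) were scaled with TMM factors and compared over all 6 libraries with edgeR's quasi-likelihood F-test, with Benjamini-Hochberg adjusted p-values over all of them and a threshold of 0.05 (R 4.3.3, edgeR 4.0.16, limma 3.58.1, DESeq2 1.42.0). SEs are the absolute log2 fold change divided by the root of F. They can be smaller than the counting error where a group has few counts, as for Fgf21. Distances between genes use log2 CPM with a prior count of 2. The procedure was tested on simulated data in which few genes changed. In the real comparison 80.0% of the tested genes were called, a setting the simulation does not cover. Of each list, up to 4 called genes with a mean CPM of at least 1 and the largest change were named, up to 3 that went against their list, the receptors whatever their values, 2 neighbours per side and the 3 genes nearest each member. Calca, Pam, Grb2, Furin, Dele1, Eif2ak1, Eif2ak3, Eif2ak4, Cd68, Acta1 and genes that did not pass were named after their values were seen. Where a list name stood on several rows, the row with the most counts was kept (1 row dropped, of Ddit3). Promoters and gene order are from RefSeq GRCr8 tables matched by symbol. Alternatives were other scalings, no filter or a stricter one (20 counts in 3 libraries and a mean CPM of 1 or more), a replicate block, DESeq2, limma-voom and leaving out each library. The variance between replicate libraries was 2.07 to 3.02 times that of counting noise in every pair, so none was counted as a copy of another.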

Additional observations from a re-analysis of the deposited data

How the results depend on the processing

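The log2 fold changes of the 4 hormone and co-receptor genes kept their direction under every alternative run. Leaving out each library gave 6.62 to 7.05 for Gdf15, 6.52 to 7.01 for Fgf21, 2.60 to 2.95 for Adm2 and 0.95 to 1.81 for Klb, where the upper ends of Fgf21 (without EVMu replicate 1) and Klb (without EVMu replicate 2) moved by more than the spread between replicates. Klb, below the count filter, gave no value under the stricter filter, the block, DESeq2 or limma-voom. Without scaling factors the median of all tested genes moved from -0.02 to -0.13, 6030 genes were called higher and 7575 lower, and 3 neighbouring genes rather than 5 were called higher. Hif1a was called lower with upper-quartile factors (log2 fold change -0.10) and without scaling factors (-0.16), so that 1 rather than 0 of the transcription factors was lower under both. Without a filter the median was 0.08, and 3 other FGF genes were called higher (Fgf6, Fgf9 and Fgf17) rather than 1, since more genes of low count entered; leaving out single libraries gave 1 to 3. The stricter filter left 0 of the stress and vasoactive hormones called lower rather than 3, since Crh, Ucn and Ucn2 did not pass it. No other count of a list moved by over 1.5 times.

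The replicate numbers are shared between the groups, but same-numbered libraries did not deviate together over all tested genes (correlations -0.00669, -0.00368 and -0.0096). Much of such deviation can be counting noise, so this does not show whether they share a culture or preparation. With the replicate block 6557 genes were called higher and 6852 lower, and Gdf15, Fgf21 and Adm2 had log2 fold changes of 6.78, 6.71 and 2.77. Few counts limit Klb, Gfral, Kl, Calcr and Ramp1, with at most 16 per library, and the EVMu level of Fgf21. Whether depth or reads lost between rat and mouse sequence set these low counts was not tested.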

Other observations

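Some relatives of FGF21 below the count filter had more counts in EVadMu. Fgf6, known from muscle regeneration, had no counts in EVMu and 7, 3 and 2 in EVadMu. Fgf23, the bone hormone that acts through α-klotho, had 5, 5 and 3 counts against 15, 11 and 8, and Fgf17 had 4, 2 and 6 against 9, 16 and 11. Fgf10 went the other way, with 3, 3 and 10 counts against 0, 3 and 1. These were not tested in the filtered table and were picked after their values were seen. Igfbp1, a liver-type secreted stress protein, had 2 counts over EVMu and 16 over EVadMu, a ratio of 8.13 (95% counting interval 1.91 to 72.9).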
